A study of Mus musculus with 6 samples.

Results

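The genes of the mouse histone clusters were followed across 6 RNA-sequencing libraries of a skin tumour cell line with Ntn1 or Unc5b knocked down. They were taken as every row of the authors' table whose symbol begins with Hist and a cluster number, with no use of measured values. There were 70 such genes among the 49671 in the table. They comprised 6 H1, 20 H2a, 19 H2b, 12 H3 and 13 H4 genes. Of these, 64 had a mean of at least 20 over the 6 libraries and were tested, among 15330 genes that passed the same filter.

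The cells were the line LKPR EPCAM+, cultured from a mouse skin squamous cell carcinoma and sorted for EPCAM, a surface protein of epithelial cells. The genotype of all groups included Lgr5CreER, p53fl/fl and Rosa26-YFP+/+, in which a Cre recombinase is driven from the Lgr5 locus, p53 carries conditional alleles and YFP marks recombined cells. The groups were transduced with lentiviral pLKO.1-puro vectors that knocked down Ntn1, the gene of the secreted guidance factor netrin, or Unc5b, the gene of a netrin receptor, or with the empty TRC1 vector, and puromycin resistance was tested afterwards. Each of the 3 groups had 2 libraries, made on day 6 after plating from sorted live cells that carried both YFP and EPCAM. The labels name 1 line, and neither the number of hairpins nor separate cultures or transductions behind the libraries of a group are given. The p-values below therefore rest on the spread among these 6 libraries alone, which can be technical.

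Histones package DNA. Pairs of H2A, H2B, H3 and H4 form the core that DNA wraps around, and H1 binds the linker DNA between cores. The clustered genes are replication-dependent: their mRNAs accumulate as DNA is copied in S phase and are degraded when copying ends. These mRNAs typically lack introns and end, not in a poly(A) tail, but in a conserved stem-loop that the stem-loop binding protein Slbp holds during processing and translation. Replication-independent histones such as H2afz and H3f3b are made from genes outside the clusters, with polyadenylated mRNAs.

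The stem-loops are shown because they are the feature that sets these mRNAs apart and because their letters divided H4 from the other classes. The 16-base element was searched in the GENCODE M21 transcripts of the 68 genes found in that annotation, and 44 of them held it. Among protein-coding genes, 44 of 65 histone cluster genes (67.7%) held it, against 70 of 21951 genes of the whole annotation (0.319%). The 8 forms are given 5′ to 3′ with T for U, and capitals mark each base that differs from the form carried by most genes.
Most common form, 24 H1, H2a, H2b and H3 genes: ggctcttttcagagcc
Hist1h1t, Hist1h2bb, Hist1h2bk, Hist1h3c, Hist1h3e and Hist1h3f: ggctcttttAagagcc
Hist2h2ac: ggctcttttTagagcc
Hist1h3g: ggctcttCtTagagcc
Hist1h4c, Hist1h4d, Hist1h4f, Hist1h4h, Hist1h4m, Hist1h4n and Hist4h4: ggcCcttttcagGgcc
Hist1h4i and Hist2h4: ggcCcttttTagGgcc
Hist1h4b and Hist1h4j: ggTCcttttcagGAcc
Hist1h4a: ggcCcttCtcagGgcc
The 12 H4 genes with an annotated stem-loop used 4 forms, and none of these forms was found in the 32 genes of other classes. The stem of every H4 form differed from the common form, while the forms of the other classes differed from it only in the loop. Among the genes with no match were Hist1h1a, Hist2h2ab and Hist1h4k, which says only that the element is not within their annotated transcripts.

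Promoters of 59 of the 70 genes were found in the RefSeq table of GRCm38.p6, each covering 250 bases before to 50 after the annotated start. A CCAAT box, searched as CCAAT on the gene's strand and as ATTGG for the other strand, was found in 50 of them (84.7%), against 37.9% of 27025 promoters of all genes. It was present in 47 of 47 H1, H2a, H2b and H3 promoters and in 3 of 12 H4 promoters. A TATA box, searched as TATAAA on the gene's strand only, was found in 50.8% against 8.88% of all promoters. The octamer, searched as ATTTGCAT and, for the other strand, as ATGCAAAT, was found in 7 of 17 H2a and 5 of 14 H2b promoters and in no other class, against 1.75% of all promoters. These counts are not independent, because some H2a and H2b promoters overlap on opposite strands. Hist1h2aa and Hist1h2ba share 1 octamer, as do Hist1h2ae and Hist1h2bg, and Hist1h2ah and Hist1h2bk. CCAAT boxes in overlapping promoters are likewise counted for both genes, and the promoters of Hist1h2bq and Hist1h2br have the same sequence. None of the motifs searched overlapped another in the promoters below, and a match is a description of letters. The promoters of 3 of the 4 genes that passed the test below are given 5′ to 3′ on the gene's strand, with the TATA and CCAAT boxes in capitals. They show an H1 and an H2a promoter with CCAAT boxes beside an H4 promoter without one.
Hist1h1a, chr13:23763418-23763717, plus strand: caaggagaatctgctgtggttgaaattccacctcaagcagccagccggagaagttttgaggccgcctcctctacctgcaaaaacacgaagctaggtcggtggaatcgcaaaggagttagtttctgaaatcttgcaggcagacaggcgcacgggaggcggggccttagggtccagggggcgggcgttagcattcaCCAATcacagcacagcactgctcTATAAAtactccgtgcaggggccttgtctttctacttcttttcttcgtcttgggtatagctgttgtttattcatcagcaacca
Hist2h2ab, chr3:96219635-96219934, plus strand: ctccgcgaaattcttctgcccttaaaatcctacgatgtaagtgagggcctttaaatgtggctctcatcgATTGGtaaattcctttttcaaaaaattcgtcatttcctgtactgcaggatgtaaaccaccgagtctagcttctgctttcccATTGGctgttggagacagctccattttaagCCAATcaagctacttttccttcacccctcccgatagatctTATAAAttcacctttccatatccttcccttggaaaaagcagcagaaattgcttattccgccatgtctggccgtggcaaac
Hist1h4k, chr13:21750504-21750803, minus strand: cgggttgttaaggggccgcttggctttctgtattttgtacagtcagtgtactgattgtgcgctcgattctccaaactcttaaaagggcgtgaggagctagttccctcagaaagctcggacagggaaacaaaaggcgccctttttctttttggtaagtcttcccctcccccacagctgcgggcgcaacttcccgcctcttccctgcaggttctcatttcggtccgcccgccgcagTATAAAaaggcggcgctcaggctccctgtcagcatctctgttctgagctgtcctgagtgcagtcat
The remaining gene that passed the test was Hist1h3a.

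The authors' values are whole numbers scaled to about 20 M per library. The spacing of low values gives a depth of 8.41 and 6.54 M reads for the Ntn1 knock-down libraries, 9.36 and 8.64 M for the Unc5b knock-down and 10.2 and 8.75 M for the empty vector. A floor of 3 reads corresponds to 5.9 to 9.17 on the scaled unit and covers counting error only. The targeted genes followed the labels. Ntn1 was 359 and 431 in Ntn1 knock-down cells, 1319 and 771 in Unc5b knock-down cells and 1566 and 2588 in empty vector cells. Unc5b was 2311 and 2382 in Ntn1 knock-down cells, 419 and 352 in Unc5b knock-down cells and 1527 and 1573 in empty vector cells. All 7 epithelial markers had a mean of at least 20, with Epcam between 8032 and 10127, against 2 of 5 fibroblast, 2 of 3 endothelial and 2 of 4 melanocyte markers. The lowest epithelial marker, Trp63, was 33 and 31 in Ntn1 knock-down cells, 152 and 88 in Unc5b knock-down cells and 94 and 96 in empty vector cells. Of the immune markers, Ptprc was between 0 and 5 and Cd68 between 25 and 122. Lyz2 and Dct, markers of myeloid cells and melanocytes, were at 0 in all 6 libraries. The melanocyte list summed to 359 and 342 in Ntn1 knock-down cells, 323 and 306 in Unc5b knock-down cells and 1537 and 1130 in empty vector cells, nearly all of it Mitf. Mitf was 311 and 284 in Ntn1 knock-down cells, 299 and 257 in Unc5b knock-down cells and 1513 and 1100 in empty vector cells. Pmel, also on this list, was 48 and 58 in Ntn1 knock-down cells, 24 and 49 in Unc5b knock-down cells and 22 and 30 in empty vector cells. The endothelial list summed to 176 and 220 in Ntn1 knock-down cells, 98 and 88 in Unc5b knock-down cells and 106 and 94 in empty vector cells. Of it, Cdh5 was 86 and 113 in Ntn1 knock-down cells, 2 and 0 in Unc5b knock-down cells and 0 and 0 in empty vector cells. Pecam1 was between 88 and 107 and Kdr between 0 and 2. The fibroblast list summed to 252 and 149 in Ntn1 knock-down cells, 216 and 135 in Unc5b knock-down cells and 120 and 121 in empty vector cells. Most of it was Pdgfra, at 193 and 113 in Ntn1 knock-down cells, 169 and 109 in Unc5b knock-down cells and 90 and 69 in empty vector cells. Col1a1 was between 18 and 40, Col1a2 between 5 and 25, Dcn between 0 and 4 and Lum between 0 and 2. The part of these markers in the histone levels was not tested. Genes above 0 numbered 22639 to 23183 per library, and genes annotated as rRNA took 1.61 to 2.03% of a library's total.

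The gene names fall into 4 groups by prefix. Of the 70 genes, 56 carry the Hist1 prefix and 52 of these passed the filter. The Hist1 genes with an annotation lie on chromosome 13 (GRCm38), within 21715763 to 23934851 except for Hist1h2al at 51202727. The 10 Hist2 genes lie on chromosome 3 within 96219865 to 96270132. The 3 Hist3 genes lie on chromosome 11 and the 1 Hist4 gene, Hist4h4, on chromosome 6. All 10 Hist2 genes and 1 of the 3 Hist3 genes passed. The 6 genes below the filter were Hist1h1t, Hist1h2aa and Hist1h2ba, known as testis-type histones, at means of 0.7, 0.7 and 1.0, and Hist3h2ba, Hist1h2aj and Hist3h2bb-ps at 14.5, 14.8 and 15.7. The genes just above it were Hist1h2ao at 25.7, Hist2h2aa1 at 25.8 and Hist1h2bq at 26.7. Hist1h2aj and Hist3h2bb-ps are annotated as pseudogenes, as is Hist1h2al, which had a mean of 1503.

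How well the reads of these genes could be told apart differed by class. The share of a gene's 50-base stretches that also occur in another gene not overlapping it had a median of 49.4% over the 68 annotated genes. The median was 1.15% in H1, 73.2% in H2a, 44.1% in H2b, 57.2% in H3 and 39.5% in H4. Exons of another gene overlapped 26 of the genes, on the opposite strand in 23 and in all 20 H2a genes. Hist1h1a and Hist1h1b shared no 50-base stretch with another gene. The authors' counting of shared reads and of strand is not given in the sources used here, so values of single core histone genes are uncertain where copies are close.

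Per kilobase of exon, the mean over the 6 libraries had a median of 1610 in H1, 802 in H2a, 1090 in H2b, 2140 in H3 and 745 in H4. The highest was Hist2h2bb at 7780 per kilobase, which lies wholly within exons of other genes, one of them on the opposite strand. Next to it stood Hist1h2ak at 4830, the pseudogene Hist1h2al at 4430, Hist1h3c at 4420 and Hist1h1b at 4230. Among H4 genes the highest was Hist1h4d at 3170 per kilobase, followed by Hist1h4f at 2380. In scaled values the leading H1 gene, Hist1h1e, was 7093 and 6198 in Ntn1 knock-down cells, 5619 and 7389 in Unc5b knock-down cells and 8830 and 7040 in empty vector cells. The leading H3 gene, Hist1h3e, was 3303 and 2786 in Ntn1 knock-down cells, 2776 and 3755 in Unc5b knock-down cells and 4186 and 3213 in empty vector cells. In both genes the libraries of the Unc5b knock-down lay farther apart than those of the Ntn1 knock-down. Hist1h3f was 3017 and 2703 in Ntn1 knock-down cells, 2214 and 3470 in Unc5b knock-down cells and 3602 and 2744 in empty vector cells. Hist1h3c was 2744 and 2495 in Ntn1 knock-down cells, 2289 and 3108 in Unc5b knock-down cells and 3378 and 2707 in empty vector cells. In these H3 genes all 3 groups overlapped.

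The core histone genes of highest level in H2a and H2b had separate Ntn1 knock-down and empty vector libraries. Hist1h2ak was 1897 and 1688 in Ntn1 knock-down cells, 1511 and 2036 in Unc5b knock-down cells and 2345 and 1902 in empty vector cells. Hist1h2ab was 1807 and 1569 in Ntn1 knock-down cells, 1387 and 1858 in Unc5b knock-down cells and 2121 and 1907 in empty vector cells. The pseudogene Hist1h2al was 1253 and 1079 in Ntn1 knock-down cells, 1299 and 1950 in Unc5b knock-down cells and 1948 and 1491 in empty vector cells. In the H2a genes the Ntn1 knock-down lay below the empty vector, and in Hist1h2al below the Unc5b knock-down too. Among H2b genes, Hist1h2bg was 1783 and 1679 in Ntn1 knock-down cells, 1526 and 2006 in Unc5b knock-down cells and 1946 and 1841 in empty vector cells. Hist1h2bb was 1603 and 1492 in Ntn1 knock-down cells, 1402 and 1913 in Unc5b knock-down cells and 2097 and 2076 in empty vector cells. Both knock-downs lay below the empty vector in Hist1h2bb, and none of the genes of this paragraph passed the test described below in any comparison.

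Summed over all 70 genes, the level was 71814 and 63506 in Ntn1 knock-down cells, 61026 and 86872 in Unc5b knock-down cells and 92348 and 76559 in empty vector cells. Both Ntn1 knock-down libraries lay below both empty vector libraries, while those of the Unc5b knock-down were the lowest and the next to highest of all. These sums were 0.359 and 0.318% of the library total in Ntn1 knock-down cells, 0.305 and 0.434% in Unc5b knock-down cells and 0.462 and 0.383% in empty vector cells. The mean was 67660 ± 5875 in Ntn1 knock-down cells, 73949 ± 18276 in Unc5b knock-down cells and 84454 ± 11164 in empty vector cells (SD, n = 2 each). The sums carry no test, since an exact permutation test of 2 libraries against 2 cannot give a p below 0.333. In such bulk samples, fewer cells with histone mRNA and less of it per cell cannot be told apart.

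The ratios of group means lay close together for H1, H2a, H2b and H3, and those of H4 lay farther off, on the low side in one comparison and near 1 in the other. The ratio of Ntn1 knock-down to empty vector was 0.809 for H1, 0.808 for H2a, 0.784 for H2b, 0.848 for H3 and 0.723 for H4. The ratio of Unc5b knock-down to empty vector was 0.867, 0.861, 0.831 and 0.878 for H1, H2a, H2b and H3 and 0.969 for H4. H4 summed to 8811 and 8241 in Ntn1 knock-down cells, 9453 and 13410 in Unc5b knock-down cells and 12595 and 10993 in empty vector cells. H4 was the only class in which both Ntn1 knock-down sums lay below both Unc5b knock-down sums. H3 summed to 18081 and 16128 in Ntn1 knock-down cells, 14706 and 20725 in Unc5b knock-down cells and 22371 and 17963 in empty vector cells. The H4 sum over the H3 sum, taken within a library, was 0.487 and 0.511 in Ntn1 knock-down cells, 0.643 and 0.647 in Unc5b knock-down cells and 0.563 and 0.612 in empty vector cells. These ratios did not overlap between any of the 3 groups. H2a over H2b ranged from 0.865 to 0.932, and the Ntn1 knock-down overlapped both other groups. The Unc5b knock-down, at 0.932 and 0.908, lay above the empty vector, at 0.905 and 0.865.

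**Figure D1:**
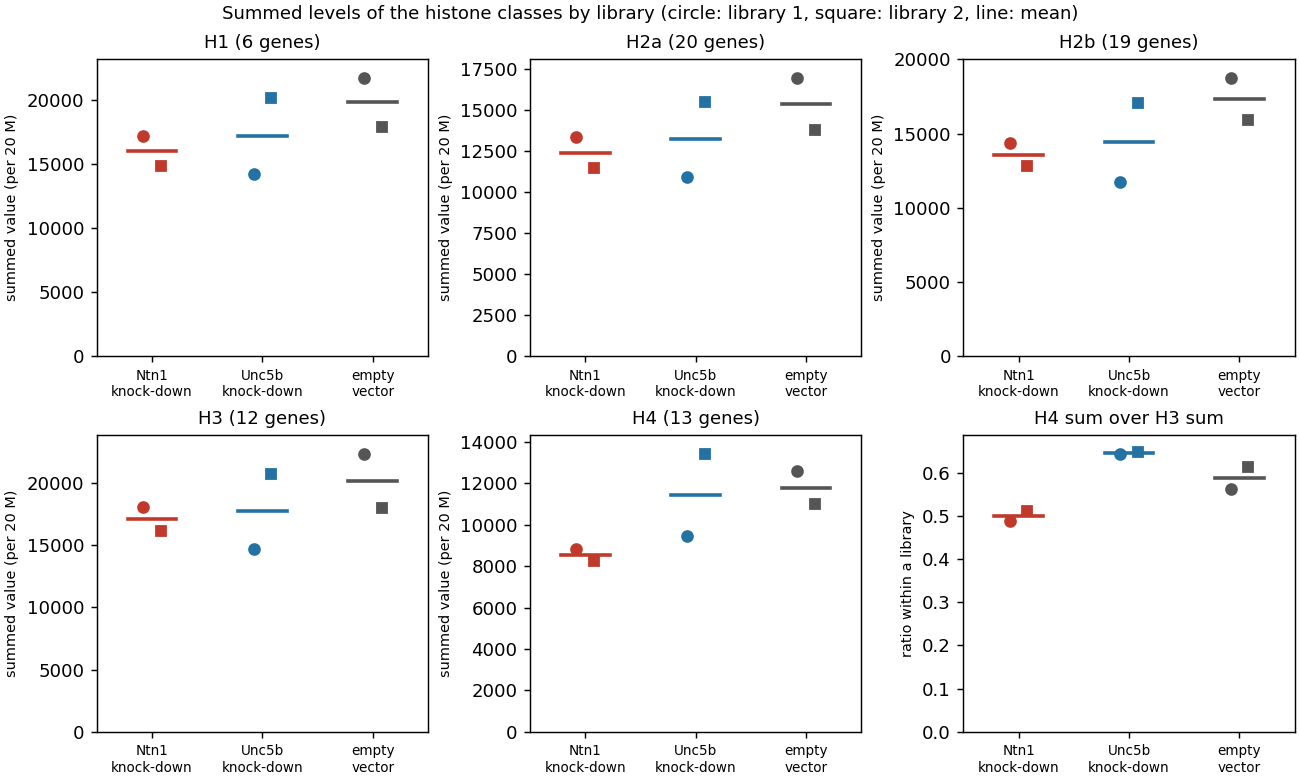
Summed scaled value (vertical axis, per 20 M) of each histone class in the Ntn1 knock-down, Unc5b knock-down and empty vector libraries, with the H4 sum over the H3 sum at the lower right; points are libraries and lines are group means. The H4 to H3 ratio sits at 0.487 and 0.511 in Ntn1 knock-down cells, 0.643 and 0.647 in Unc5b knock-down cells and 0.563 and 0.612 in empty vector cells, while the class sums of the Unc5b knock-down are widely spaced.

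The libraries of a group differed across nearly the whole family at once. Library 2 of the Ntn1 knock-down was lower than library 1 in 55 of 64 tested genes, with a median log2 difference of -0.20. Library 2 of the Unc5b knock-down was higher than library 1 in 62 of 64, with a median of 0.54, and the exceptions were Hist2h2ab and Hist2h2aa1. Library 2 of the empty vector was lower than library 1 in 58 of 64, with a median of -0.25. Over all genes tested the same directions held for 46.5%, 47.0% and 47.5% in Ntn1 knock-down, Unc5b knock-down and empty vector cells. A list of 47 DNA replication and S phase genes moved with the histones inside the groups, and other lists did so in part. Library 2 was lower for 34 of the 47 in Ntn1 knock-down cells, higher for 44 in Unc5b knock-down cells and lower for all 47 in empty vector cells. In the same order, the counts were 23, 25 and 13 of 25 G2 and mitosis genes and 17, 18 and 18 of 25 histone chaperone genes. They were 14, 17 and 20 of 22 genes of histone mRNA 3′ processing and transcription. For replication-independent histones and variants they were 5, 9 and 6 of 11. The summed level of the 47 genes was 96269 and 88112 in Ntn1 knock-down cells, 86416 and 105755 in Unc5b knock-down cells and 133322 and 89788 in empty vector cells. The part of these lists in the histone levels was not tested.

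**Figure D2:**
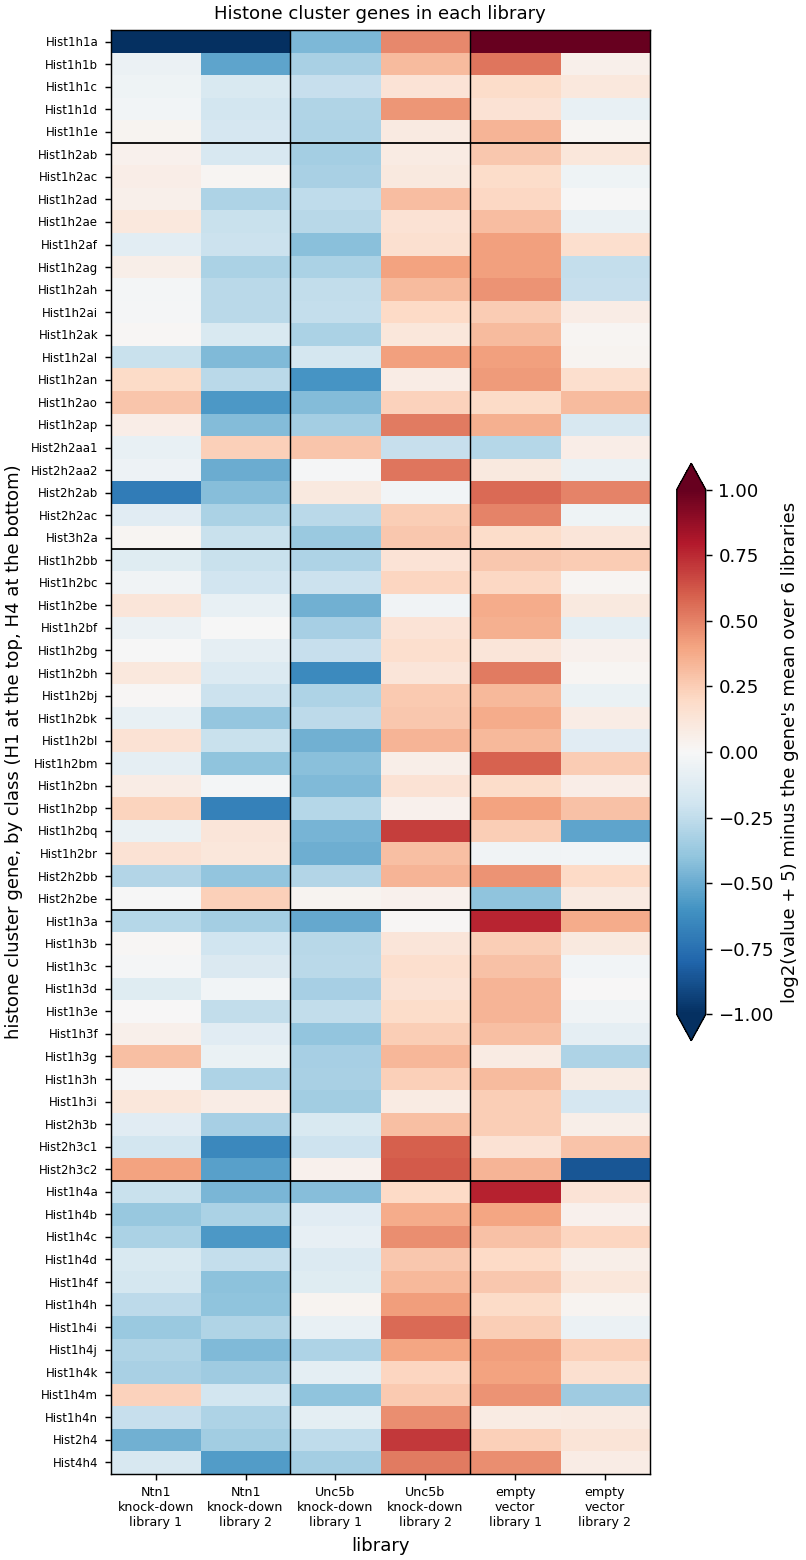
The 64 tested histone cluster genes (rows, by class) in the 6 libraries (columns: Ntn1 knock-down, Unc5b knock-down, empty vector), coloured by log2(value + 5) minus the gene's mean over the libraries. The library 2 column of the Unc5b knock-down is redder than its library 1 column in 62 of 64 rows, and Hist1h1a in the top row has the widest range.

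In the comparison of Ntn1 knock-down with empty vector, 4 of 64 histone cluster genes passed the test (limma, adjusted p under 0.05), all lower, and none was higher. That is 6.25%, below the 15.1% of all genes tested that passed in either direction. Of all genes tested, 7.06% passed as lower, which is close to the share of the histone genes, and 8.04% as higher. At an unadjusted p under 0.05 (limma), 16 of 64 were lower and 0 higher, against 4610 of 15330 genes tested in either direction. The fold changes were shifted more widely than the calls: 57 of 64 were below 0, against 51.6% of all genes tested. Their median was -0.28 on the log2(value + 5) scale, against -0.02 over all genes. The median of the 64 was -0.4 without library 1 of the Ntn1 knock-down and -0.15 without its library 2. It was -0.19 without library 1 of the empty vector and -0.43 without its library 2. The 64 genes moved together between libraries of a group, so their signs are not independent. Both knock-down libraries lay below both empty vector libraries in 36 of 64 genes (56.2%), against a background of 30.2%. They lay above in 1, Hist1h2br, against a background of 28%. That gene, named after its values were seen, was 181 and 177 in Ntn1 knock-down cells and 159 and 160 in empty vector cells.

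Hist1h1a, an H1 linker histone gene at chr13:23763666-23764406 on the plus strand, had the lowest fold change of the family in each comparison. It was 31 and 21 in Ntn1 knock-down cells, 56 and 111 in Unc5b knock-down cells and 232 and 208 in empty vector cells. All 3 groups were separate, with the Ntn1 knock-down lowest and the empty vector highest. At the estimated depth these values stand for about 13 and 7 reads in Ntn1 knock-down cells, 26 and 48 in Unc5b knock-down cells and 118 and 91 in empty vector cells. In Ntn1 knock-down over empty vector the ratio of means was 0.118 and the log2 fold change was -2.88 ± 0.35 (SE, limma adjusted p = 0.00153). It was the only H1 gene to pass: Hist1h1b, Hist1h1c, Hist1h1d and Hist1h1e had log2 fold changes of -0.14 to -0.58 and did not. Hist1h1b was 2929 and 2116 in Ntn1 knock-down cells, 2430 and 3792 in Unc5b knock-down cells and 4414 and 3158 in empty vector cells. Hist1h1c was 4247 and 3926 in Ntn1 knock-down cells, 3721 and 4815 in Unc5b knock-down cells and 4976 and 4694 in empty vector cells. At 148 per kilobase Hist1h1a was also the lowest of the 5 tested H1 genes.

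Hist2h2ab, an H2a gene at chr3:96219865-96220308 on the plus strand, was 52 and 64 in Ntn1 knock-down cells, 94 and 86 in Unc5b knock-down cells and 132 and 126 in empty vector cells. Again the 3 groups did not overlap. Its log2 fold change in Ntn1 knock-down over empty vector was -1.10 ± 0.25 (SE, limma adjusted p = 0.0208). A gene on the opposite strand, Gm15444, overlaps its exons. Hist1h3a, an H3 gene at chr13:23761853-23762386 on the minus strand, was 542 and 523 in Ntn1 knock-down cells, 464 and 669 in Unc5b knock-down cells and 1126 and 857 in empty vector cells. Here the knock-downs overlapped each other and both lay below the empty vector. Its log2 fold change was -0.88 ± 0.21 (SE, limma adjusted p = 0.025), and 49.5% of its 50-base stretches occur in another gene. Hist1h4k, an H4 gene at chr13:21750194-21750505 on the minus strand, was 547 and 535 in Ntn1 knock-down cells, 643 and 797 in Unc5b knock-down cells and 912 and 768 in empty vector cells. The Ntn1 knock-down lay below both other groups, which overlapped. Its log2 fold change was -0.62 ± 0.16 (SE, limma adjusted p = 0.0355), and 71.5% of its 50-base stretches occur in other genes.

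The count of 4 fell to 1, Hist1h1a, without library 1 or library 2 of the Ntn1 knock-down or library 1 of the empty vector, and was 7 without library 1 of the Unc5b knock-down. Hist1h1a passed in all 15 alternative settings run, while Hist2h2ab, Hist1h3a and Hist1h4k each lost the call in some, with adjusted p of up to 0.152, 0.172 and 0.209.

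**Figure D3:**
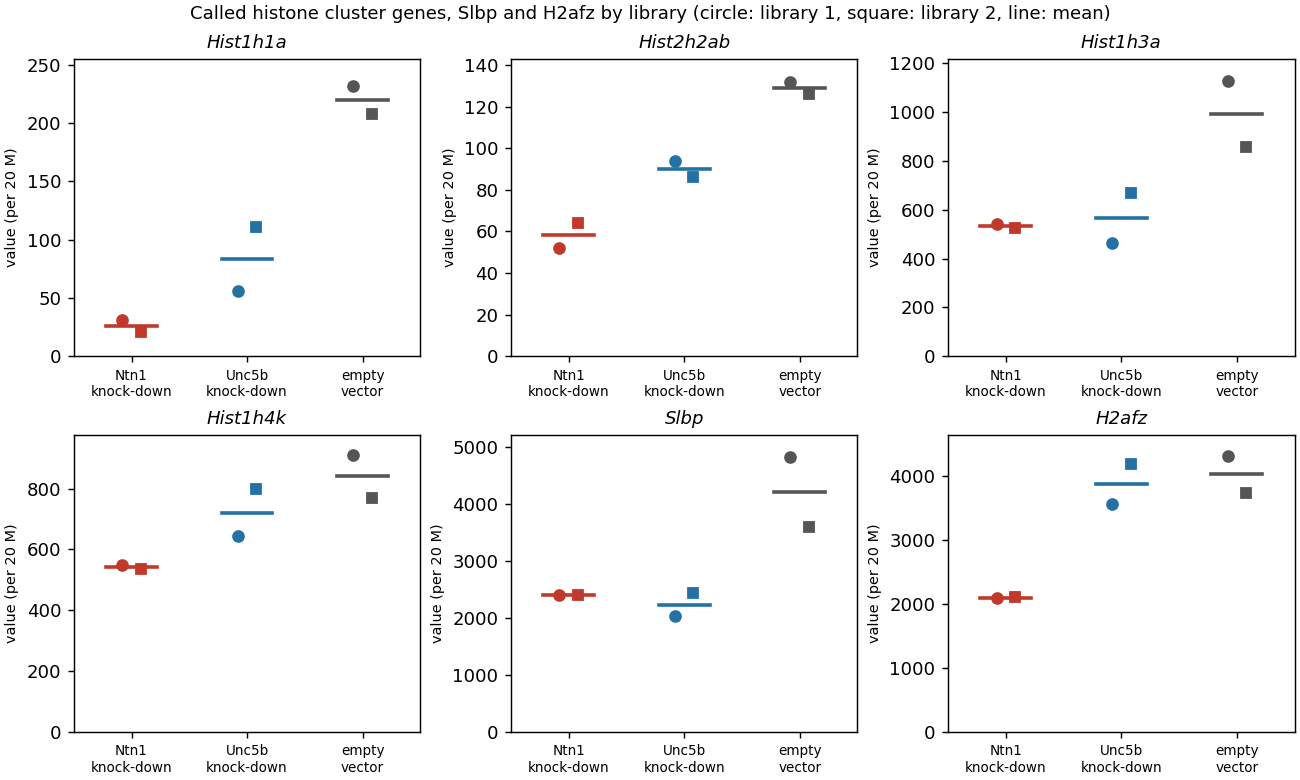
Scaled values (vertical axis, per 20 M) of the 4 histone cluster genes that passed the test in any comparison, of Slbp and of the variant gene H2afz in Ntn1 knock-down, Unc5b knock-down and empty vector cells; points are libraries and lines are group means. Hist1h1a is 31 and 21 in Ntn1 knock-down cells, 56 and 111 in Unc5b knock-down cells and 232 and 208 in empty vector cells, whereas H2afz is low in Ntn1 knock-down cells alone.

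Among the other classes, no H2b gene passed by limma, and 3 of 16 had an unadjusted p under 0.05, against 4610 of 15330 genes tested. The lowest fold change there was that of Hist1h2bm, which was 894 and 719 in Ntn1 knock-down cells, 712 and 991 in Unc5b knock-down cells and 1433 and 1136 in empty vector cells (log2 fold change -0.67 ± 0.20 in Ntn1 knock-down over empty vector, limma adjusted p = 0.06). Hist2h2bb was 2349 and 2196 in Ntn1 knock-down cells, 2347 and 3660 in Unc5b knock-down cells and 3930 and 3304 in empty vector cells, with a log2 fold change of -0.66 ± 0.20 (SE, limma adjusted p = 0.0577). The highest fold changes of the family belonged to genes of low or middle level. Hist2h2be, at 90 and 107 in Ntn1 knock-down cells and 67 and 96 in empty vector cells, stood at 0.27, Hist1h3g at 0.23 and Hist2h2aa1 at 0.19, and none passed. Hist1h3g was 808 and 627 in Ntn1 knock-down cells, 519 and 829 in Unc5b knock-down cells and 694 and 528 in empty vector cells. Hist2h2aa1 was 24 and 31 in Ntn1 knock-down cells, 32 and 21 in Unc5b knock-down cells and 20 and 27 in empty vector cells. In these 3 genes the Ntn1 knock-down overlapped the empty vector.

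H4 had the lowest median fold change of the classes in Ntn1 knock-down over empty vector. All 13 H4 genes had log2 fold changes below 0 there, from -0.79 to -0.03, with a median of -0.56. Fold changes were also below 0 in 5 of 5 H1, 17 of 18 H2a, 13 of 16 H2b and 9 of 12 H3 genes. The medians were -0.25 in H1, -0.27 in H2a, -0.22 in H2b and -0.25 in H3. In 30.2% of all genes tested, both Ntn1 knock-down libraries lay below both empty vector libraries. This was so in 12 of 13 H4, 3 of 5 H1, 8 of 18 H2a, 7 of 16 H2b and 6 of 12 H3 genes. The H4 genes share sequence, so these counts are not independent. The H4 gene that overlapped, Hist1h4m, was 43 and 31 in Ntn1 knock-down cells and 51 and 27 in empty vector cells, and is named after its values were seen. Only Hist1h4k of the 13 passed the test, and 7 of 13 had an unadjusted p under 0.05, against 4610 of 15330 genes tested. The difference between H4 and the other classes was not tested.

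Hist1h4d, the H4 gene of highest level, was 3212 and 3033 in Ntn1 knock-down cells, 3253 and 4315 in Unc5b knock-down cells and 4101 and 3725 in empty vector cells. Hist1h4h was 835 and 758 in Ntn1 knock-down cells, 1022 and 1339 in Unc5b knock-down cells and 1148 and 1022 in empty vector cells. Hist1h4n was 823 and 780 in Ntn1 knock-down cells, 906 and 1339 in Unc5b knock-down cells and 1022 and 1031 in empty vector cells. In each of these genes the Ntn1 knock-down was lowest and the other groups overlapped. Hist1h4c followed the same order at 224 and 187 in Ntn1 knock-down cells, 265 and 389 in Unc5b knock-down cells and 344 and 327 in empty vector cells. Hist2h4, on chromosome 3 and with 1.0% of its 50-base stretches in another gene, was 326 and 358 in Ntn1 knock-down cells, 383 and 750 in Unc5b knock-down cells and 538 and 501 in empty vector cells. Hist2h4 passed neither over empty vector nor over Unc5b knock-down (limma adjusted p = 0.193 and 0.216). The part of shared reads in the H4 values was not tested.

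**Figure D4:**
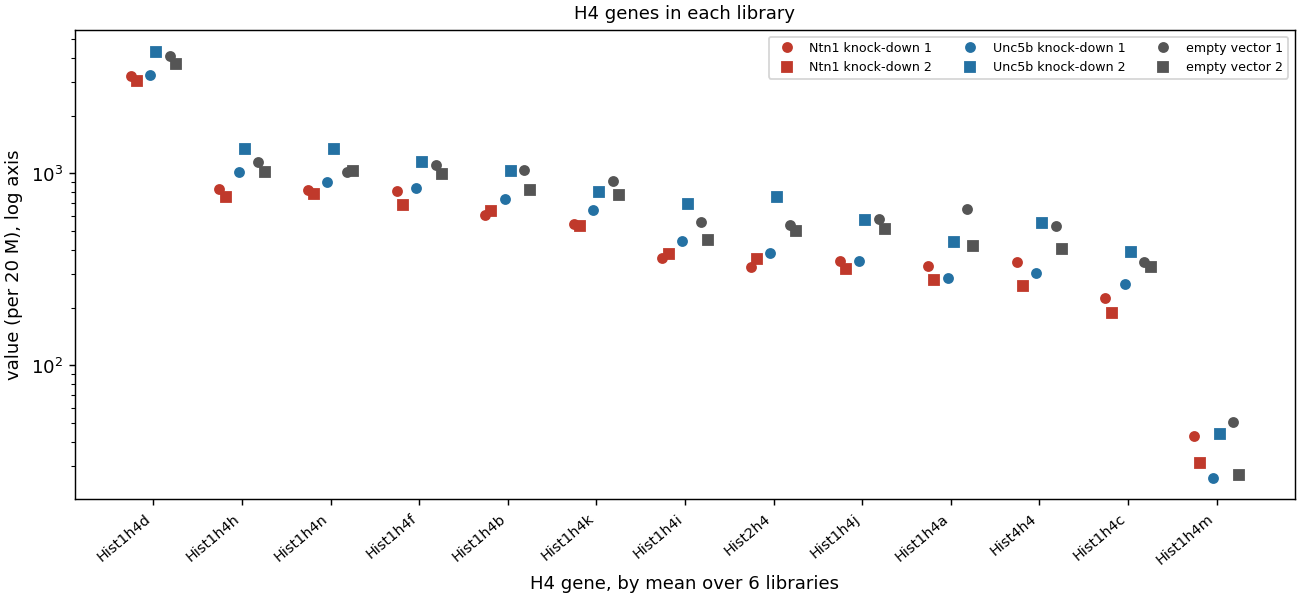
Scaled value (vertical log axis, per 20 M) of the 13 H4 genes, ordered by mean, in each library of the Ntn1 knock-down, Unc5b knock-down and empty vector. In 12 of 13 genes both Ntn1 knock-down points lie below both empty vector points, against 30.2% of all genes tested. Hist1h4m at the right is the exception.

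In the comparison of Unc5b knock-down with empty vector, 2 of 64 histone cluster genes passed, both lower. That is 3.12%, against a background of 12% in either direction, 6.07% as lower and 5.9% as higher. At an unadjusted p under 0.05 (limma), 4 of 64 were lower and 0 higher, against 4122 of 15330 genes tested in either direction. Hist1h1a had a log2 fold change of -1.42 ± 0.35 (SE, limma adjusted p = 0.0364) and Hist1h3a of -0.81 ± 0.21 (SE, limma adjusted p = 0.0393). Fold changes were below 0 in 53 of 64, with a median of -0.18 against 0.04 over all genes tested. Both Unc5b knock-down libraries lay below both empty vector libraries in 10 of 64 genes (15.6%, background 23.2%) and above in none (background 28.7%). For H4 the median was -0.09, no H4 gene had an unadjusted p under 0.05 (limma), and in none of the 13 genes did both libraries lie below both of the empty vector. Hist1h2bm had a log2 fold change of -0.60 and Hist2h3c2, at 34 and 53 in Unc5b knock-down cells and 43 and 16 in empty vector cells, of 0.58, and neither passed. Further fold changes were those of Hist1h2bh at -0.52, Hist1h2bq at 0.26 and Hist2h2aa2 at 0.25, and none of these passed. Hist1h2bh was 515 and 876 in Unc5b knock-down cells and 1152 and 814 in empty vector cells. Hist1h2bq was 17 and 44 in Unc5b knock-down cells and 31 and 16 in empty vector cells, and Hist2h2aa2 was 100 and 148 in Unc5b knock-down cells and 108 and 96 in empty vector cells. In all 3 the groups overlapped. The median over the 64 genes was 0.04 without library 1 of the Unc5b knock-down and -0.43 without its library 2. Both calls were lost without library 1 or 2 of the Ntn1 knock-down, library 1 of the Unc5b knock-down or library 1 of the empty vector, and 1 remained without library 2 of the empty vector. Adjusted p then reached 0.168 for Hist1h1a and 0.18 for Hist1h3a.

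In the comparison of Ntn1 with Unc5b knock-down, 1 of 64 genes passed (1.56%, background 7.1% in either direction, 2.95% as lower and 4.15% as higher). This was Hist1h1a, with a log2 fold change of -1.46 ± 0.35 (SE, limma adjusted p = 0.0465). Fold changes had a median of -0.10, against -0.05 over all genes tested. Both Ntn1 knock-down libraries lay below both Unc5b knock-down libraries in 13 of 64 genes (20.3%, background 31.3%), of which 9 were H4 genes. The H4 median was -0.45, against -0.18 in H1, -0.09 in H2a, -0.04 in H2b and -0.05 in H3. An unadjusted p under 0.05 (limma) was seen in 7 of 13 H4 genes, against 3509 of 15330 genes tested. The lowest H4 adjusted p was that of Hist1h4h, with a log2 fold change of -0.55 ± 0.16 (SE, limma adjusted p = 0.0802). Hist1h4c and Hist2h4 both had a log2 fold change of -0.64 and did not pass. The highest fold change was that of Hist1h2be, at 1194 and 1043 in Ntn1 knock-down cells and 787 and 1072 in Unc5b knock-down cells (0.28, not passed). Next came Hist1h2bh at 0.24, with 866 and 731 in Ntn1 knock-down cells and 515 and 876 in Unc5b knock-down cells, and Hist1h3i at 0.23, with 1691 and 1648 in Ntn1 knock-down cells and 1229 and 1654 in Unc5b knock-down cells. In all 3 the groups overlapped and none passed. The median over the 64 genes was 0.14 without library 2 of the Unc5b knock-down and -0.38 without its library 1. The call of Hist1h1a was lost without library 1 or 2 of the Ntn1 knock-down or library 2 of the Unc5b knock-down, with adjusted p of up to 0.287, and it was also lost with TMM scaling, at 0.0501. Without library 1 of the Unc5b knock-down or library 2 of the empty vector, 2 genes passed.

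**Figure D5:**
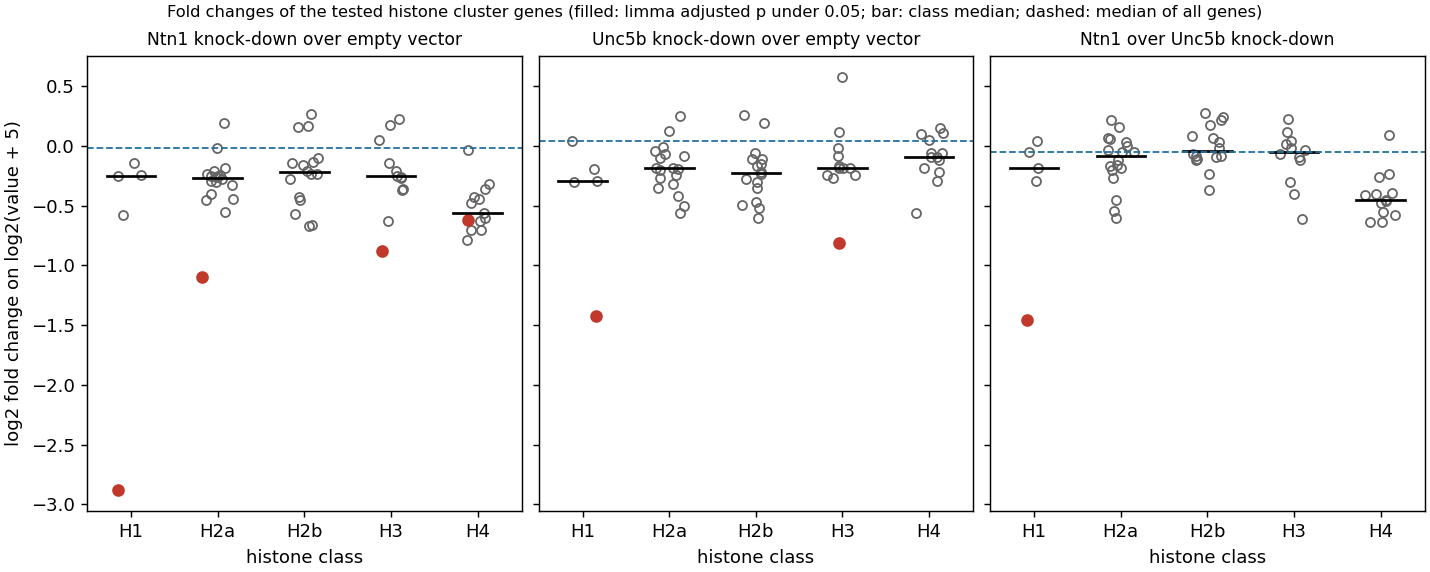
Log2 fold change on the log2(value + 5) scale (vertical axis) of the 64 tested histone cluster genes by class, for Ntn1 knock-down over empty vector, Unc5b knock-down over empty vector and Ntn1 over Unc5b knock-down; filled points passed the test, bars are class medians and the dashed line is the median of all genes tested. The H4 median lies at -0.56 and -0.45 where the Ntn1 knock-down is on top of the ratio and at -0.09 for Unc5b knock-down over empty vector.

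These 3 comparisons share libraries, and their values are set side by side for that reason only. Hist1h1a had log2 fold changes of -2.88, -1.42 and -1.46 in Ntn1 knock-down over empty vector, Unc5b knock-down over empty vector and Ntn1 over Unc5b knock-down. Hist1h3a had -0.88, -0.81 and -0.07 in the same order, Hist2h2ab -1.10, -0.50 and -0.60, and Hist1h4k -0.62, -0.22 and -0.40.

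Of a list of 26 genes of histone mRNA 3′ processing and histone gene transcription, 23 were in the table and 22 were tested. The background for this and the other lists is the share of all genes tested that passed. It was 8.04% as higher and 7.06% as lower in Ntn1 knock-down over empty vector. In Unc5b knock-down over empty vector it was 5.9% and 6.07%, and in Ntn1 over Unc5b knock-down 4.15% and 2.95%. In Ntn1 knock-down over empty vector, 1 was higher and 1 lower, with a median log2 fold change of 0.12. In Unc5b knock-down over empty vector, 2 were higher and 1 lower, with a median of 0.10. None passed by limma in Ntn1 over Unc5b knock-down, while 2 had an unadjusted p under 0.05, against 3509 of 15330 genes tested. Slbp, whose product binds the stem-loops shown above, was 2397 and 2397 in Ntn1 knock-down cells, 2024 and 2437 in Unc5b knock-down cells and 4827 and 3590 in empty vector cells. Both knock-downs lay below the empty vector and overlapped each other. Its log2 fold change over empty vector was -0.80 ± 0.16 in Ntn1 knock-down cells (SE, limma adjusted p = 0.0128) and -0.90 ± 0.16 in Unc5b knock-down cells (SE, limma adjusted p = 0.00936). Without library 1 or 2 of the Ntn1 knock-down the first of these calls was lost, at an adjusted p of 0.119 each, and without library 1 of the Unc5b knock-down the other was lost, at 0.0617.

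Gtf2a1, a subunit of the general transcription factor TFIIA, was higher at 1890 and 1878 in Ntn1 knock-down cells and 1874 and 1814 in Unc5b knock-down cells, against 1364 and 1269 in empty vector cells. Its limma adjusted p was 0.0178 for the Ntn1 knock-down and 0.0273 for the Unc5b knock-down. Ncbp2, a subunit of the nuclear cap-binding complex, was higher in Unc5b knock-down cells, at 793 and 864 against 531 and 460 in empty vector cells (limma adjusted p = 0.0157). The 3 calls were lost without either library of the knock-down compared, at adjusted p of up to 0.162, and the calls in Unc5b knock-down cells also without either library of the Ntn1 knock-down and, for Gtf2a1, without library 2 of the empty vector.

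Of 18 replication-independent histone and variant genes, 11 were tested, and the background shares are those given with the 3′ processing list. In Ntn1 knock-down over empty vector, 1 was higher and 1 lower, with a median of -0.27. In Unc5b knock-down over empty vector 1 was higher, with a median of -0.02, and in Ntn1 over Unc5b knock-down 2 were lower, with a median of -0.13. H2afz, which encodes the H2A variant found at promoters, was 2095 and 2110 in Ntn1 knock-down cells, 3574 and 4190 in Unc5b knock-down cells and 4320 and 3743 in empty vector cells. It was lower in Ntn1 knock-down cells than in both other groups, which overlapped. The log2 fold change was -0.93 ± 0.13 over empty vector (SE, limma adjusted p = 0.00228) and -0.88 ± 0.13 over Unc5b knock-down (SE, limma adjusted p = 0.00697). In Unc5b knock-down over empty vector it was -0.06, with a limma adjusted p of 0.827. The call against the Unc5b knock-down was lost without library 1 or 2 of the Ntn1 knock-down or library 2 of the Unc5b knock-down, with an adjusted p of up to 0.118. H3f3b, a gene of the replication-independent H3, was 9461 and 9831 in Ntn1 knock-down cells, 9013 and 9849 in Unc5b knock-down cells and 7022 and 7751 in empty vector cells (0.39 ± 0.11 in Ntn1 knock-down over empty vector, limma adjusted p = 0.045). H2afj, an H2A variant gene, was 407 and 407 in Ntn1 knock-down cells, 618 and 686 in Unc5b knock-down cells and 379 and 352 in empty vector cells, and was higher in Unc5b knock-down over empty vector (0.83 ± 0.15, limma adjusted p = 0.0108). In Ntn1 over Unc5b knock-down it was lower (-0.67 ± 0.15, limma adjusted p = 0.0357). The call of H3f3b was lost without any one library other than library 2 of the empty vector, at adjusted p of up to 0.276. Those of H2afj were lost without library 2 of the Unc5b knock-down (0.0927 over empty vector), and in Ntn1 over Unc5b knock-down also without any other knock-down library, at adjusted p of up to 0.25.

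Of the 47 DNA replication and S phase genes, 3 were lower and none higher in Ntn1 knock-down over empty vector, with a median of -0.18. Of all genes tested, 7.06% passed as lower there. In Unc5b knock-down over empty vector 4 of 47 were lower and none higher, with a median of -0.15, against 6.07% of all genes tested as lower. None passed in Ntn1 over Unc5b knock-down by limma, with a median of -0.07. There 4 of 47 genes had an unadjusted p under 0.05, against 3509 of 15330 genes tested. Besides Slbp, which is also on this list, the genes were Gins4, a subunit of the replicative helicase, and Dut, which removes dUTP from the nucleotide pool, in both comparisons and Rpa1, which binds single-stranded DNA, in Unc5b knock-down cells. Gins4 was 554 and 633 in Ntn1 knock-down cells, 707 and 642 in Unc5b knock-down cells and 1069 and 999 in empty vector cells, with limma adjusted p of 0.0077 and 0.027 over empty vector. Dut was 1645 and 1682 in Ntn1 knock-down cells, 1716 and 1925 in Unc5b knock-down cells and 3107 and 2426 in empty vector cells, with limma adjusted p of 0.0122 and 0.0319. In both genes the empty vector lay above every knock-down library. Rpa1, named after its values were seen, was 2837 and 2495 in Ntn1 knock-down cells, 2447 and 2738 in Unc5b knock-down cells and 3628 and 3460 in empty vector cells, with a limma adjusted p of 0.0443 in Unc5b knock-down over empty vector. That call was lost without any one library, at adjusted p of up to 0.185. The calls of Gins4 and Dut in Ntn1 knock-down cells were lost without either library of that group, at adjusted p of up to 0.124. Those of Gins4 and Dut in Unc5b knock-down cells were lost without any one library other than library 2 of the empty vector, at adjusted p of up to 0.161.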

How the data were processed

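Values were the authors' deposited scores for 6 libraries, whole numbers scaled to about 20 M per library and not raw counts, so no count model was fitted. Per the submitters' processing notes, STAR, Picard and HTSeq were used with GRCm38 (mm10). Not given in the sources used here are the versions, annotation, strand setting, scaling step and treatment of duplicate and multiply mapped reads. Whether RNA was selected by its poly(A) tail is not described here, and its part in the levels of histone cluster genes was not tested. Scaled and rounded values hide differences in depth, and shared reads can be dropped or split between histone copies.

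The scale was log2(value + 5) and 15330 genes, each averaging 20 or more, were tested, so fold changes of low genes are understated. The limma package (3.58.1, R 4.3.3) fitted 1 linear model of the 3 groups, using every library and a trended variance. Tests were 2-sided with Benjamini-Hochberg adjustment within each comparison and called at an adjusted p under 0.05. The script was tested on simulated data. The labels' replicate numbers were not used to pair the libraries in this model. A further allele shared by all groups and 1 immune marker are not reported here. Class sums include all 70 genes. Positions, transcripts, stem-loops and 50-base stretches came from GENCODE M21 of GRCm38, and promoters from RefSeq GRCm38.p6. Depth came from low values up to 150 falling on multiples of a step within 0.5. At least 99.77% did so.

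Genes given with values were those called, the 3 of highest mean in each class, the 3 largest rises and falls in each comparison, the targeted genes, and called genes of 5 lists. The genes followed here and the lists were chosen with earlier results of these data known. Alternatives were the pseudocount, the filter, the trend, TMM and median-of-ratios scaling computed on the deposited values, a replicate block, fits to 4 libraries and leaving out each library.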

Additional observations from a re-analysis of the deposited data

How the results depend on the processing

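No call of a named gene changed sign under the alternatives run. Of fold changes of named genes that had not passed, 45 changed sign in 1 or more alternatives and none of these passed there. The balance of calls over all genes, 1232 higher and 1082 lower in Ntn1 knock-down over empty vector, was 946 and 959 with a mean of at least 100. In Unc5b knock-down over empty vector it was 904 higher and 931 lower, against 1247 and 1181 without library 1 of the empty vector and 761 and 705 without library 2. Called histone cluster genes in Ntn1 knock-down over empty vector (4) numbered 1 with no filter, 2 with no variance trend and 1 with the replicate block, and 1 to 7 with a library left out. In Unc5b knock-down over empty vector (2) they numbered 0 with no filter, no trend, the replicate block or only the 4 libraries compared, and 0 to 2 with a library left out. In Ntn1 over Unc5b knock-down (1) they numbered 0 with pseudocount 20, no filter, a mean of at least 100, no trend, TMM scaling or the replicate block, 2 with only the 4 libraries compared, and 0 to 2 with a library left out. Over all genes, 2314 calls in Ntn1 knock-down over empty vector became 1289 with no filter, 1462 with no trend, 1465 with the replicate block and 507 to 2769 with a library left out. The 1835 in Unc5b knock-down over empty vector became 791, 1115, 1102 and, with only the 4 libraries, 950, and 680 to 2428 with a library left out. The 1088 in Ntn1 over Unc5b knock-down became 302, 454, 459 and 1856, and 34 to 1842 with a library left out. Differences between library 1 and library 2 correlated across genes at 0.16 for Ntn1 knock-down and empty vector. They correlated at -0.45 for Unc5b knock-down and empty vector and at -0.17 for the knock-downs. Whether libraries of equal replicate number, or in another order, share a batch was not tested. The named genes held 32 calls, of which 25 did not pass without library 1 of the Ntn1 knock-down, 25 without its library 2, 23 with no trend, 22 with no filter, 19 with the replicate block and 0 to 15 in any other alternative. The cause of these changes was not tested. The class sums moved by less than their replicate spread under both scalings. With 6.54 to 10.2 M reads, the genes near the filter rest on few reads.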

Other observations

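Genes that handle histones as proteins and genes of later cell-cycle phases were followed beside the histone genes. Of 25 histone chaperone genes, none passed by limma in Ntn1 knock-down over empty vector (4 at an unadjusted p under 0.05, against 4610 of 15330 genes tested). In Unc5b knock-down over empty vector 2 were lower (background 6.07%), and in Ntn1 over Unc5b knock-down 1 was higher (background 4.15%). Hjurp, the chaperone of the centromeric H3 variant, was 3845 and 4235 in Ntn1 knock-down cells, 3586 and 3407 in Unc5b knock-down cells and 4516 and 5200 in empty vector cells (limma adjusted p = 0.0354 in Unc5b knock-down over empty vector). Spty2d1, an H3-H4 chaperone gene, was 2066 and 2113 in Ntn1 knock-down cells, 1554 and 1429 in Unc5b knock-down cells and 1955 and 2060 in empty vector cells (limma adjusted p = 0.0446 in Unc5b knock-down over empty vector and 0.0396 in Ntn1 over Unc5b knock-down). Each of these calls was lost without either library of each knock-down, and those over empty vector also without library 2 of the empty vector, at adjusted p of up to 0.292.

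Of 25 G2 and mitosis genes, 2 were lower in Ntn1 knock-down over empty vector (background 7.06%) and 1 was higher in Ntn1 over Unc5b knock-down (background 4.15%). None passed by limma in Unc5b knock-down over empty vector (3 at an unadjusted p under 0.05, against 4122 of 15330 genes tested). Nusap1, a spindle protein gene, was 1619 and 1553 in Ntn1 knock-down cells, 1819 and 2022 in Unc5b knock-down cells and 2394 and 3235 in empty vector cells (limma adjusted p = 0.0106 in Ntn1 knock-down over empty vector). Bub1b, a spindle checkpoint kinase gene, was 1824 and 1826 in Ntn1 knock-down cells, 2184 and 2423 in Unc5b knock-down cells and 2309 and 2600 in empty vector cells (limma adjusted p = 0.0467 in the same comparison). Mki67, a proliferation marker, was 15551 and 14668 in Ntn1 knock-down cells and 8733 and 10453 in Unc5b knock-down cells, against 16164 and 11881 in empty vector cells, and passed in Ntn1 over Unc5b knock-down (0.66 ± 0.16, SE, limma adjusted p = 0.0451). The calls of Nusap1, Bub1b and Mki67 were lost without either library of the Ntn1 knock-down, at adjusted p of up to 0.304, those of Bub1b and Mki67 also without either library of the Unc5b knock-down, and that of Bub1b without library 2 of the empty vector. Without library 1 of the empty vector Nusap1, and without library 2 Mki67, passed in Unc5b knock-down over empty vector, at 0.00743 and 0.0106. The summed level of the list was 95303 and 86457 in Ntn1 knock-down cells, 79863 and 98329 in Unc5b knock-down cells and 95047 and 92179 in empty vector cells.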
